A study of Homo sapiens with 6 samples.

Results

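Homologous recombination copies a broken chromosome from an intact sister, and the Fanconi pathway unhooks crosslinks between the DNA strands and hands the break that results to the same machinery. The 40 genes described here code for proteins of these 2 linked pathways. They were listed by name, with earlier results of these data known but with no threshold on a measured value. Each was looked up by gene symbol in the count table. All 40 were found among its 26334 genes, and all 40 passed the filter on low counts that left 16117 genes to test. They were set into 7 groups by the step at which their proteins act, from sensing of the break to cutting of the joined strands.

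The libraries came from MCF10DCIS.com (hereafter MCF10DCIS), a human breast cancer cell line that forms ductal carcinoma in situ-like lesions in mice. One group, shLuc (n = 3), carried a short hairpin RNA against luciferase, which has no target in human cells, and the other, shWDR5 (n = 3), was silenced for WDR5 by the same means. WDR5 is a scaffold subunit of the MLL/SET1 complexes that methylate histone H3 at lysine 4. The study asked which genes depend on WDR5 in breast cancer cells. In both groups the U6 promoter drove the hairpin, the vector also carried TagRFP and puromycin resistance, and cells were selected with 3 µg/ml puromycin in the same medium with horse serum. The groups are bulk populations of a single cell line, and the labels give no harvest time. The study pooled hairpins against WDR5 for the cells of this line that it transplanted, and the labels do not say whether the sequenced cells carried that pool. Polyadenylated RNA was sequenced. The libraries held 48500509, 38218108 and 39327358 counted reads in shLuc and 47723477, 57640167 and 46097058 in shWDR5.

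The labels were first checked on the silenced gene. WDR5 (hg19, chr9:137001210-137025094) was at 52.6, 48.5 and 51.3 CPM (the read count scaled to library size) in the shLuc libraries and at 23.4, 24.4 and 20.8 CPM in the shWDR5 libraries. The 3 shWDR5 libraries lay below all 3 shLuc libraries, and WDR5 fell by 1.15 on the log2 scale (SE 0.07, edgeR quasi-likelihood test, adjusted p = 8.67e-07), to 45.0% of its shLuc level. The cells were epithelial by their markers. The keratin genes KRT17 and KRT5 stood at 2159 ± 96.8 and 820.3 ± 36.5 CPM in shLuc (SD, n = 3), whereas LUM of fibroblasts, CD3E of T cells and HBB of red cells had 0 counts in all 6 libraries. Some other markers of these types were detected at low levels, COL1A1 with 689 to 1122 reads a library, PECAM1 of endothelium with 181 to 312 and CD14 of monocytes with 34 to 95. On a principal component plane the first component held 85.8% of the variance and separated the groups. The second component, with 7.8%, set the library numbered 1 of each group (12.3 and 11.3) apart from the other 4 (-9.6 to -2.7), and the main counts are also given without these libraries.

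In outline, most of the repair genes had less RNA upon WDR5 silencing. Of the 40 genes, 34 were lower in shWDR5 at an adjusted p under 0.05, 1 was higher (RBBP8) and 5 did not pass the test (NBN, ATM, PALB2, FANCF and MUS81). A large share of the transcriptome differed between the groups, and these counts are to be read against it: 29.9% of the 16117 genes tested were called lower and 26.6% higher, while 85% of the repair genes were called lower. The median log2 fold change of the 40 genes was -0.59, which is 66.2% of the shLuc level, beside a median of -0.011 over all genes tested, whose quartiles were -0.33 and 0.29. Of the repair genes, 22.5% (9 genes) had a log2 fold change below -1, as did 4.29% of all genes. Added up, the 40 genes gave 1623.5 ± 53.8 CPM in shLuc and 1204.7 ± 51.3 CPM in shWDR5 (SD, n = 3).

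In each of the 34 genes called lower, every shWDR5 library lay below every shLuc library, which held for 32.4% of all genes tested. RBBP8 had all its shWDR5 libraries above, as did 29.9% of all genes tested, and the groups overlapped in the other 5. With the libraries numbered 1 left out of both groups, 32 of the 40 genes were called lower and RBBP8 was still called higher, beside 4665 (29.0%) and 4315 (26.8%) of 16072 genes tested. The libraries numbered 1 were the lowest of their group, in both groups, in 23 of the 40 genes. This is a larger share than the 23.4% of all genes tested. Under the stricter rule that the study stated for its tumour grafts (adjusted p under 0.05, a log2 fold change of at least 0.6 in size and an RPKM, the read count scaled by exon length and library size, over 0.5), 19 of the 40 were lower, where 10.5% of all genes were lower, and 0 were higher, where 7.9% of all genes were, since RBBP8 passed the edgeR and DESeq2 tests but not the size asked for. SLX4 lay just inside this rule and FANCA just outside it, both at a log2 fold change of -0.60. In bulk RNA, fewer cells in the cycle phases that use these genes and less RNA per cell cannot be told apart.

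**Figure D1:**
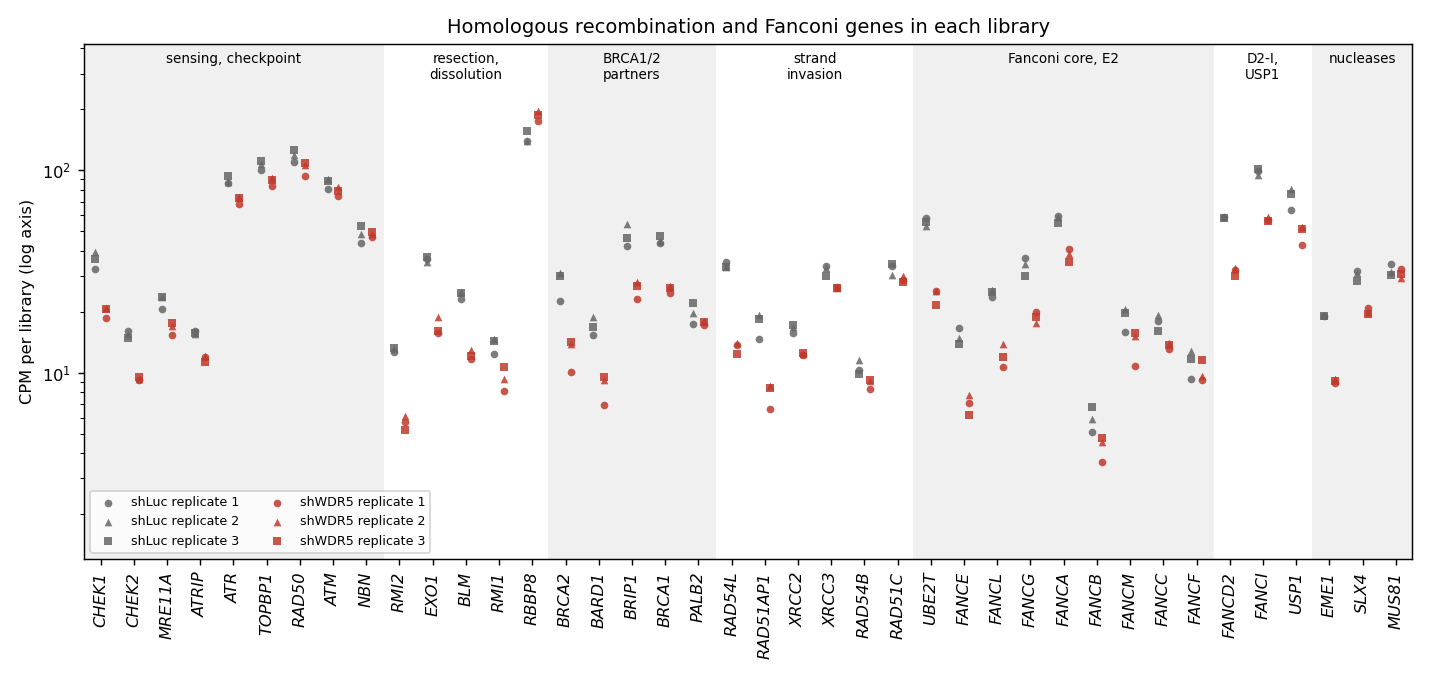
CPM (log axis) of the 40 repair genes in each of the 6 libraries, ordered by the step at which the proteins act. Grey symbols are shLuc and red symbols shWDR5, with a symbol shape for each replicate number. In 34 genes the 3 red symbols lie below the 3 grey ones, in RBBP8 above them, and in the other 5 the colours overlap.

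The steepest falls came from genes of different steps, RAD54L, UBE2T, RMI2, RAD51AP1 and BRCA2 among them. To show the DNA in front of such genes, the promoters of the 3 most lowered genes with an entry in the RefSeq promoter table used, and of RBBP8, are printed 5′ to 3′ on the strand of the gene. Each runs from 250 bases before the annotated start to 50 bases after it (GRCh38.p14), at chr1:46247438-46247737 (plus strand) for RAD54L, chr1:202341887-202342186 (minus) for UBE2T, chr12:4538640-4538939 (plus) for RAD51AP1 and chr18:22933078-22933377 (plus) for RBBP8. Capitals mark matches to the CCAAT box (CCAAT), on either strand, and to the cell cycle homology region or CHR (TTTGAA or TTCGAA).
RAD54L: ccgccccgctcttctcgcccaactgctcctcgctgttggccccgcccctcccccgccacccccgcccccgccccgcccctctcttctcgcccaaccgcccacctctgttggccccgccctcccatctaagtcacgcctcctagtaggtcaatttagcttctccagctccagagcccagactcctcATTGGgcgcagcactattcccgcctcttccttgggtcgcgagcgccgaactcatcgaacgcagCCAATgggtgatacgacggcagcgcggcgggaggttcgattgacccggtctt
UBE2T: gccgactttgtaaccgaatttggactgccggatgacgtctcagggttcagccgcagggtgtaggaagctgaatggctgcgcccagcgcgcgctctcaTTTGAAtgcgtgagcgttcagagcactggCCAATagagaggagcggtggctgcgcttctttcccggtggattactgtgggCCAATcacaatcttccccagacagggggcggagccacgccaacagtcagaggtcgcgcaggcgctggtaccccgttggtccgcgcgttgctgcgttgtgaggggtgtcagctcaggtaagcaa
RAD51AP1: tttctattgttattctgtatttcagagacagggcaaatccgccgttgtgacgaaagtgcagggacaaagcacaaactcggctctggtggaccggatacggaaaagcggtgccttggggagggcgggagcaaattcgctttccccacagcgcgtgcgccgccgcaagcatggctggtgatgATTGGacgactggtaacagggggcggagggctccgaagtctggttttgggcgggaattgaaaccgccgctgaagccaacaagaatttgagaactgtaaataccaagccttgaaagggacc
RBBP8: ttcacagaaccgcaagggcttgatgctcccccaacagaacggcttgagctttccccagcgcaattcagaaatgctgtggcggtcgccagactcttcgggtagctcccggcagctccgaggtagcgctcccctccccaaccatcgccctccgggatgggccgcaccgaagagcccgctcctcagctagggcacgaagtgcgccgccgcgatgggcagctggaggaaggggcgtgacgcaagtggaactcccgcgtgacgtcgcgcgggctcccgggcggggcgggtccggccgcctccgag

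The RAD54L window held CCAAT matches 65 and 2 bases before the start. UBE2T had them 124 and 73 bases before the start and a TTTGAA match 153 bases before it, and RAD51AP1 had a single CCAAT match 70 bases before the start. RBBP8, the gene called higher, had no match to any motif searched. The same held for ATR, BRCA1, BARD1, RAD51C, FANCB, FANCE, FANCG, FANCL, EME1 and SLX4, all called lower. Promoters were found for 36 of the 40 genes (not for NBN, RMI2, RAD54B and FANCI). Among the 36, CCAAT was present in 18, against 34.6% of the 35116 promoters in the table and 34.4% of those of genes tested. It was in 14 of 31 promoters of repair genes called lower (45.2%) and in all 4 of those not called. The CHR letters, bound by the DREAM and MuvB complexes of cell cycle genes, were in 4 (11.1%, against 16.4% of all and 12.3% of genes tested). An E-box (CACGTG), the letters read by MYC and related factors, was in 3 (8.33%, against 7.26% and 8.81%).

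E2F letters (TTTCCCGC, TTTCGCGC, TTTGCCGC or TTTGGCGC, either strand) were searched because E2F factors are known to switch on S-phase genes. They were in 6 of the 36 promoters (16.7%), against 3.31% of all promoters and 4.54% of those of genes tested. Of repair genes called lower, 6 of 31 had them (19.4%), against 5.72% of the promoters of all genes called lower. Of the repair genes not called, 0 of 4 had them. The 6 were TOPBP1, EXO1, XRCC2, FANCA, FANCC and FANCD2, with log2 fold changes from -1.10 (EXO1) to -0.27 (TOPBP1). No motif searched is contained in another, and 11 of the 36 promoters held none. These are matches of letters in a window of 300 bases, not sites shown to be bound.

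The first group to act senses broken ends and single-stranded DNA and signals to the cell cycle. MRE11A, RAD50 and NBN form the MRN complex, which binds broken ends and activates the kinase ATM. ATRIP brings the kinase ATR to single-stranded DNA, where TOPBP1 activates it, and CHEK1 and CHEK2 are the kinases downstream. Of these 9 genes, 7 were lower and 2 did not pass the test, with a median log2 fold change of -0.32.

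The effector kinases fell the most. CHEK1 (hg19, chr11:125495031-125546150) was at 32.3, 39.4 and 36.5 CPM in shLuc and at 18.6, 21.0 and 20.7 CPM in shWDR5. All of its shWDR5 libraries were below the lowest shLuc library, and the log2 fold change was -0.84 (SE 0.09, adjusted p = 1.72e-05). CHEK2 stood at 16, 15.6 and 14.8 CPM in shLuc and at 9.15, 9.27 and 9.48 CPM in shWDR5, a log2 fold change of -0.73 (SE 0.07, adjusted p = 1.07e-05). The groups were apart and the shWDR5 libraries nearly equal.

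The upstream genes had smaller fold changes. MRE11A, the nuclease of the MRN complex, was at 20.5, 23.7 and 23.5 CPM in shLuc and at 15.4, 17.1 and 17.6 CPM in shWDR5 (log2 fold change -0.44, SE 0.08, adjusted p = 0.00112). ATRIP was at 16, 15.6 and 15.7 CPM against 12.0, 12.0 and 11.3 CPM (log2 fold change -0.42, SE 0.07, adjusted p = 0.000363). In both genes the groups were apart. ATR and TOPBP1 fell less again, with log2 fold changes of -0.32 (adjusted p = 0.00102) and -0.27 (adjusted p = 0.00355). TOPBP1 had the most RNA per length of the group, at 19.9 RPKM in shLuc and 16.5 RPKM in shWDR5, and its libraries read 100.4, 108 and 111 CPM against 83.5, 91.6 and 89.7 CPM.

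The other MRN genes lay at or beyond the edge of the test. RAD50, the structural partner of MRE11A, had a log2 fold change of -0.20 (SE 0.07, adjusted p = 0.0417). It missed the threshold in 6 of the alternatives (edgeR or DESeq2 adjusted p from 0.0521 to 0.174), among them leaving out shLuc replicate 2 or 3 or shWDR5 replicate 1 or 2. NBN, which recruits ATM, was at 43.6, 48.5 and 53 CPM in shLuc and at 46.7, 48.6 and 49.5 CPM in shWDR5, so the shWDR5 values lay inside the shLuc range. Its log2 fold change of -0.00 had a 95% interval from -0.17 to 0.17 (adjusted p = 0.983). ATM was at 80.5, 90.1 and 88.8 CPM against 74.5, 82.7 and 79.2 CPM, with overlapping groups and a log2 fold change of -0.13 (95% interval -0.28 to 0.01, adjusted p = 0.107). It was called lower with a replicate block (edgeR adjusted p = 0.012) and with library totals alone (0.0329).

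The next group trims the broken ends and, at the end of repair, dissolves the joined strands. RBBP8 codes for CtIP, which starts resection together with MRN, and EXO1 is a long-range exonuclease. The helicase BLM acts with RMI1 and RMI2, both in resection and in dissolving double Holliday junctions. Of the 5 genes 4 were lower and 1 higher, and the median log2 fold change was -0.99.

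RMI2 was at 12.6, 13.0 and 13.2 CPM in shLuc and at 5.70, 6.09 and 5.21 CPM in shWDR5, or 43.9% of the shLuc level (log2 fold change -1.19, SE 0.08, adjusted p = 1.38e-06). EXO1 (hg19, chr1:242011493-242053241) was at 36.2, 35.0 and 37.2 CPM against 15.8, 18.9 and 16 CPM, a log2 fold change of -1.10 (SE 0.08, adjusted p = 2.03e-06). BLM was at 23.0, 25.1 and 24.6 CPM against 11.7, 12.9 and 12.1 CPM (log2 fold change -0.99, SE 0.07, adjusted p = 1.86e-06). In each of these genes the highest shWDR5 library was well below the lowest shLuc library. RMI1, the other BLM partner, fell less, from 12.3, 14.6 and 14.3 CPM to 8.12, 9.34 and 10.7 CPM (log2 fold change -0.55, SE 0.11, adjusted p = 0.0015).

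RBBP8 (hg19, chr18:20513295-20606449) went the other way. Its shLuc libraries were at 139, 139.8 and 156 CPM and its shWDR5 libraries at 174, 195 and 186 CPM. The lowest shWDR5 library exceeded the highest shLuc library, and the log2 fold change was 0.35 (SE 0.07, adjusted p = 0.000992). At 40.8 RPKM in shLuc and 52.1 RPKM in shWDR5 it had the most RNA per length of its group. With RBBP8 included, the summed CPM of these 5 genes overlapped between the groups, at 223.4, 227.6 and 245.5 in shLuc and 215.7, 242.1 and 230.2 in shWDR5.

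BRCA1 and BRCA2, the tumour suppressors whose loss causes hereditary breast and ovarian cancer, prepare the resected strand for pairing. BARD1 is the obligate partner of BRCA1 in its ubiquitin ligase, BRIP1 is a helicase bound to BRCA1, and PALB2 bridges BRCA1 and BRCA2. Of these 5 genes 4 were lower and PALB2 did not pass the test, with a median log2 fold change of -0.88.

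BRCA2 (hg19, chr13:32889617-32973809) was at 22.6, 31.1 and 29.9 CPM in shLuc and at 10.1, 13.9 and 14.2 CPM in shWDR5, a log2 fold change of -1.13 (SE 0.15, adjusted p = 8.81e-05). The library numbered 1 was the lowest in each group, which widened the error, and the groups stayed apart. BRCA1 (hg19, chr17:41196312-41277500) was at 43.9, 44.7 and 47.1 CPM in shLuc and at 24.6, 26.8 and 26.2 CPM in shWDR5, or 57.2% of the shLuc level (log2 fold change -0.81, SE 0.06, adjusted p = 3.08e-06). Per length, BRCA1 was the highest of the group in shLuc at 6.14 RPKM, and with 3.51 RPKM in shWDR5 it lay below PALB2 (4.86 RPKM in shLuc and 4.36 RPKM in shWDR5).

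The BRCA1 partners BARD1 and BRIP1 fell with it. BARD1 was at 15.3, 18.8 and 16.9 CPM in shLuc and at 6.89, 9.18 and 9.53 CPM in shWDR5 (log2 fold change -0.99, SE 0.12, adjusted p = 6.72e-05). BRIP1 was at 42.3, 54.3 and 46.5 CPM against 23.1, 27.9 and 26.8 CPM (log2 fold change -0.88, SE 0.10, adjusted p = 4.07e-05). The groups did not overlap in either gene. PALB2 did not pass the test, with 17.4, 19.7 and 22 CPM in shLuc and 17.2, 18 and 17.8 CPM in shWDR5. Its shLuc library numbered 1 lay within the shWDR5 range, and the log2 fold change of -0.15 had a 95% interval from -0.35 to 0.04 (adjusted p = 0.162). Without shLuc replicate 1 it was -0.22 and passed (adjusted p = 0.0386).

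**Figure D2:**
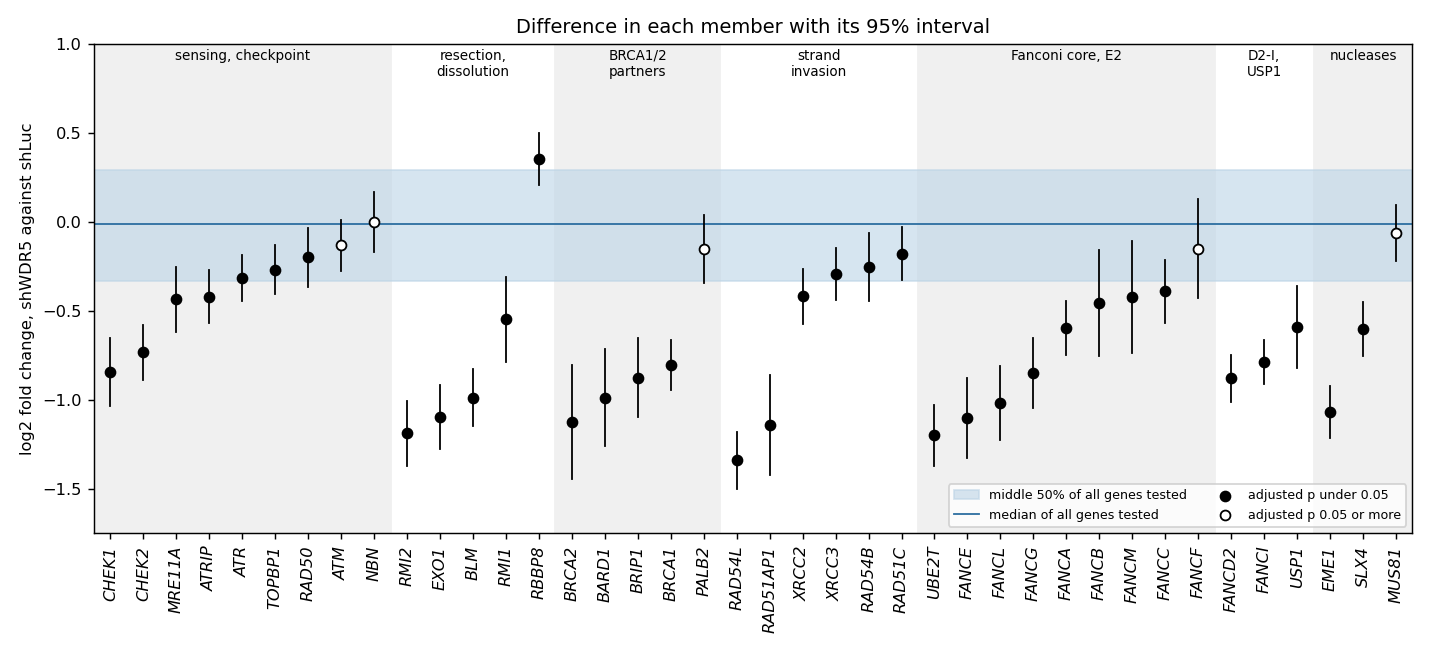
Log2 fold change (shWDR5 over shLuc) of the 40 repair genes, with 95% confidence intervals from the edgeR fit, coloured by whether the gene was called. RAD54L is the lowest at -1.34 and RBBP8 the only gene above 0 among those called, at 0.35.

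Strand invasion, the step in which the resected strand pairs with the intact copy, is served by RAD54L and RAD54B, motor proteins that remodel DNA during pairing, by RAD51AP1, which helps the strands to join, and by RAD51C, XRCC2 and XRCC3, related proteins that act at this step. All 6 genes were called lower, with a median log2 fold change of -0.35, and 4 of them without the libraries numbered 1. The fold changes ran widely, from -1.34 to -0.18.

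RAD54L (hg19, chr1:46713367-46744145) had the largest fall of the 40 genes. It was at 35.3, 33.1 and 33.2 CPM in shLuc and at 13.7, 14.1 and 12.3 CPM in shWDR5, or 39.5% of the shLuc level. No library came near the other group, and the log2 fold change was -1.34 (SE 0.07, adjusted p = 3.29e-07). RAD51AP1 was at 14.7, 19.3 and 18.4 CPM against 6.58, 8.62 and 8.43 CPM (log2 fold change -1.14, SE 0.13, adjusted p = 3.06e-05). Here too the library numbered 1 was the lowest of each group, without overlap between them.

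The other 4 genes had smaller fold changes. XRCC2 was at 15.6, 16.8 and 17.3 CPM in shLuc and at 12.2, 12.4 and 12.6 CPM in shWDR5 (log2 fold change -0.42, SE 0.07, adjusted p = 0.000487). XRCC3 was at 33.6, 32.8 and 29.9 CPM against 26.5, 26.1 and 26.1 CPM (log2 fold change -0.29, SE 0.07, adjusted p = 0.00333). RAD51C, with the most RNA per length of the group (21.7 RPKM in shLuc, 19.2 RPKM in shWDR5), was at 33.8, 30.5 and 34.3 CPM against 28.8, 30.1 and 28.2 CPM. Its groups were separated only narrowly, by the shLuc library numbered 2 at 30.5 and the shWDR5 library numbered 2 at 30.1 CPM, and its log2 fold change of -0.18 (SE 0.07, adjusted p = 0.0445) missed the threshold in 8 of the alternatives (edgeR or DESeq2 adjusted p from 0.066 to 0.165), among them leaving out any single library but shLuc replicate 2. RAD54B had a log2 fold change of -0.25 (SE 0.09, adjusted p = 0.0269), which missed the threshold in 5 of the alternatives. These were DESeq2's test (adjusted p = 0.0646), leaving out shLuc replicate 2 (0.108) or shWDR5 replicate 1 or 2 (0.0791 and 0.0562), and leaving out both libraries numbered 1 (0.0874). Of its exon bases 63.7% are shared with FSBP on the same strand. How reads there were counted was not given, so its count may hold reads of FSBP or lack some of its own.

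The Fanconi core complex (FANCA, FANCB, FANCC, FANCE, FANCF, FANCG and FANCL among its subunits) is brought to crosslinks by FANCM, and its ligase subunit FANCL works with the ubiquitin-conjugating (E2) enzyme UBE2T to mark FANCD2 and FANCI. Of these 9 genes 8 were lower and FANCF did not pass the test, with a median log2 fold change of -0.60.

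UBE2T (hg19, chr1:202300785-202311094) was at 57.8, 53.2 and 55.3 CPM in shLuc and at 25.4, 25.4 and 21.5 CPM in shWDR5, a log2 fold change of -1.20 (SE 0.08, adjusted p = 8.90e-07). All its shWDR5 values were far under the shLuc values. Per length it had the most RNA of all 40 genes in shLuc, at 60.8 RPKM, and 26.4 RPKM in shWDR5. FANCE, the subunit that binds FANCD2, was at 16.6, 14.8 and 13.9 CPM against 7.10, 7.74 and 6.20 CPM (log2 fold change -1.10, SE 0.10, adjusted p = 8.45e-06). FANCL was at 23.6, 25.5 and 25.1 CPM against 10.7, 13.8 and 12.0 CPM (log2 fold change -1.02, SE 0.09, adjusted p = 8.95e-06). Neither gene had overlapping groups. FANCG was at 37.0, 34.3 and 29.9 CPM against 19.9, 17.6 and 18.8 CPM (log2 fold change -0.85, SE 0.09, adjusted p = 1.97e-05).

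The rest of the core showed smaller differences, with log2 fold changes of -0.60 in FANCA, -0.46 in FANCB, -0.42 in FANCM and -0.39 in FANCC, at adjusted p-values of 3.96e-05, 0.014, 0.0264 and 0.00177. FANCB had few reads, between 3.61 and 6.79 CPM, and missed the threshold without shLuc replicate 3 (adjusted p = 0.0758). FANCM missed it without shLuc replicate 2 or 3 (0.104 and 0.109) or shWDR5 replicate 1 (0.0594). FANCF, whose gene has a single coding exon, was at 9.33, 12.8 and 11.7 CPM in shLuc and at 9.15, 9.66 and 11.6 CPM in shWDR5. Its groups overlapped, and the log2 fold change of -0.15 had a 95% interval from -0.43 to 0.13 (adjusted p = 0.335). The subunits that act together in the core thus covered log2 fold changes from -1.10 (FANCE) to -0.15 (FANCF). Some exons of the core genes overlap other genes, 26.1% of exon bases in FANCL (VRK2) and 22.9% in FANCA (ZNF276).

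The substrate of the core is the FANCD2-FANCI pair, which is clamped onto DNA once it is ubiquitinated, and USP1 removes that ubiquitin. All 3 genes were lower, with a median log2 fold change of -0.79. FANCD2 (hg19, chr3:10068113-10143614) was at 58.4, 58.4 and 57.9 CPM in shLuc and at 32, 32.9 and 30.1 CPM in shWDR5 (log2 fold change -0.88, SE 0.06, adjusted p = 1.14e-06). FANCI was at 99.5, 94.8 and 102 CPM against 56.5, 58.9 and 55.8 CPM (log2 fold change -0.79, SE 0.06, adjusted p = 1.54e-06). The pair stood at 54.3% and 57.9% of their shLuc levels, with no overlap between groups. USP1 was at 63.2, 80.9 and 76.6 CPM against 42.5, 52.5 and 51.4 CPM, a smaller fall (log2 fold change -0.59, SE 0.10, adjusted p = 0.000708). Its library numbered 1 was again the lowest of each group, and the groups did not overlap.

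The last group cuts joined strands and crosslinks. MUS81 and EME1 are the subunits of a structure-specific nuclease, and SLX4 is the scaffold on which several nucleases assemble. EME1 (hg19, chr17:48450581-48458820) was at 18.9, 19.2 and 19 CPM in shLuc and at 8.85, 9.33 and 9.04 CPM in shWDR5 (log2 fold change -1.07, SE 0.07, adjusted p = 7.42e-07). SLX4 was at 31.9, 31.1 and 28.5 CPM against 20.9, 19.9 and 19.5 CPM (log2 fold change -0.60, SE 0.07, adjusted p = 3.96e-05). Both genes had separate groups, and the replicates of EME1 were the more even. The catalytic subunit MUS81 had the most RNA per length of the 3, 13.4 RPKM in shLuc and 12.8 RPKM in shWDR5, and did not pass the test. It was at 34.5, 31.3 and 30.5 CPM in shLuc and at 32.4, 29.3 and 30.5 CPM in shWDR5, with overlapping groups and a log2 fold change of -0.06 (95% interval -0.22 to 0.09, adjusted p = 0.477).

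Levels per length spanned from 1.25 RPKM (RAD54B) to 60.8 RPKM (UBE2T) in shLuc, with a median of 7.53 RPKM over the 40 genes, beside 5.45 RPKM over all genes tested. The RAD54B value uses its full exon length, of which 63.7% overlaps FSBP, and may be too low if reads there were not counted. In shWDR5 the median of the 40 was 4.17 RPKM. Across the 40 genes, which share the libraries, Spearman's rho between mean RPKM in shLuc and log2 fold change was 0.02. The shLuc level also enters the fold change, so these are not independent measures. Between exon length and log2 fold change rho was 0.24. Single counts behind these values ran from 167 to 11077 reads.

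**Figure D3:**
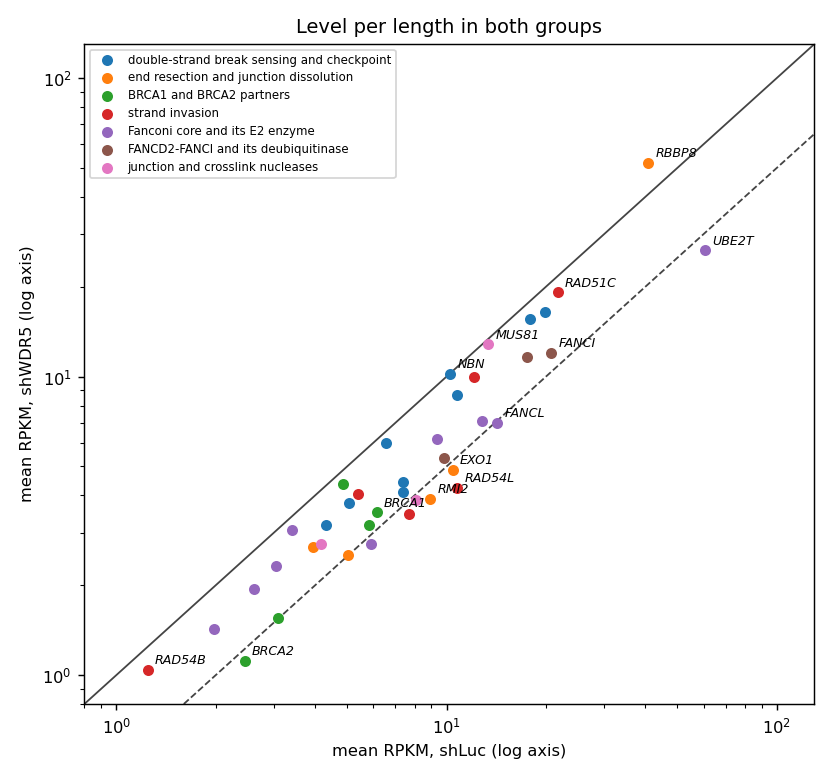
Mean RPKM of the 40 repair genes in shLuc (x axis) and shWDR5 (y axis), both on log axes, with the line of equal level and a line of 2-fold lower level. UBE2T has the highest level in shLuc, RBBP8 lies above the line of equal level, and the most lowered genes lie at or under the lower line.

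The remaining genes of the pathway and the other repair pathways were described from fixed lists. Of 54 other genes of homologous recombination and the Fanconi pathway, 52 could be tested (not SLX1A and SLX1B). In these, 32 were lower and 8 higher, beside 29.9% and 26.6% of all genes tested, with a median log2 fold change of -0.30. Without the libraries numbered 1, 30 were lower and 8 higher, beside 29.0% and 26.8% of all genes tested. RAD51D, a relative of RAD51C, fell from 6.87 ± 0.107 to 2.80 ± 0.302 CPM (SD, n = 3, log2 fold change -1.29, adjusted p = 2.83e-06). DNA2, a resection nuclease and helicase, fell from 25.1 ± 2.00 to 13.1 ± 1.65 CPM (log2 fold change -0.93, adjusted p = 2.55e-05). C17orf53, whose protein brings the MCM8-MCM9 helicase to damaged DNA, fell from 9.70 ± 0.974 to 5.16 ± 0.235 CPM (log2 fold change -0.91, adjusted p = 2.04e-05). The groups did not overlap in any of the 3 genes.

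In the other direction, EME2, an alternative partner of MUS81, rose from 8.83 ± 0.132 to 15.9 ± 1.09 CPM (log2 fold change 0.85, adjusted p = 7.22e-06). SWI5, the partner of SFR1, rose from 6.63 ± 0.820 to 11.5 ± 1.14 CPM (log2 fold change 0.79, adjusted p = 0.000137). FAAP20, a partner of FANCA, rose from 19 ± 1.08 to 26.1 ± 1.96 CPM (log2 fold change 0.46, adjusted p = 0.000547). Within the MUS81 nucleases, EME1 was thus lower and EME2 higher, with MUS81 not called.

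The called shares of the remaining lists are to be read beside the 29.9% of all genes tested called lower and the 26.6% called higher. Of 11 genes of non-homologous end joining, which rejoins ends without a copy, 5 were lower and the other 6 did not pass the test, with a median log2 fold change of -0.29. Without the libraries numbered 1, 7 were lower and 1 higher. XRCC6, or Ku70, had a log2 fold change of -0.59 (adjusted p = 9.26e-06), the ligase partner XRCC4 of -0.48 (adjusted p = 0.0103, 0.0518 without shLuc replicate 3), and the kinase PRKDC of -0.37 (adjusted p = 0.000116). Of 5 mismatch repair genes MSH6 (-0.39, adjusted p = 0.000136) and MLH3 (-0.31, adjusted p = 0.00231) were lower and the other 3 did not pass the test, with a median log2 fold change of -0.28. Without the libraries numbered 1, 2 were lower and 1 higher.

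Base excision and single-strand break repair had 11 of 17 genes lower and 2 higher (median log2 fold change -0.42), and 11 lower and 3 higher without the libraries numbered 1. PARP2 (-0.92, adjusted p = 3.35e-06), the glycosylase NEIL2 (-0.90, adjusted p = 1.23e-05) and the flap nuclease FEN1 (-0.76, adjusted p = 2.60e-06) fell, while the glycosylase NEIL1 (0.58, adjusted p = 0.000211) and the endonuclease APEX1 (0.16, adjusted p = 0.0282) rose. The APEX1 call was lost without shLuc replicate 2 (0.0982) or 3 (0.0893) and without any of the shWDR5 replicates (0.0824, 0.0556 and 0.0549), with library totals alone (0.114) and without a filter on low counts (0.053). Nucleotide excision repair had 7 of 16 genes lower and 6 higher (median -0.13), and 5 lower and 4 higher without the libraries numbered 1. GTF2H3 (-0.53, adjusted p = 0.000107), RAD23B (-0.45, adjusted p = 0.000683) and ERCC2 (-0.38, adjusted p = 0.000885) fell, and XPA (0.56, adjusted p = 0.000702), ERCC6 (0.38, adjusted p = 0.00191) and GTF2H1 (0.37, adjusted p = 0.00053) rose. The lists were not tested against each other.

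**Figure D4:**
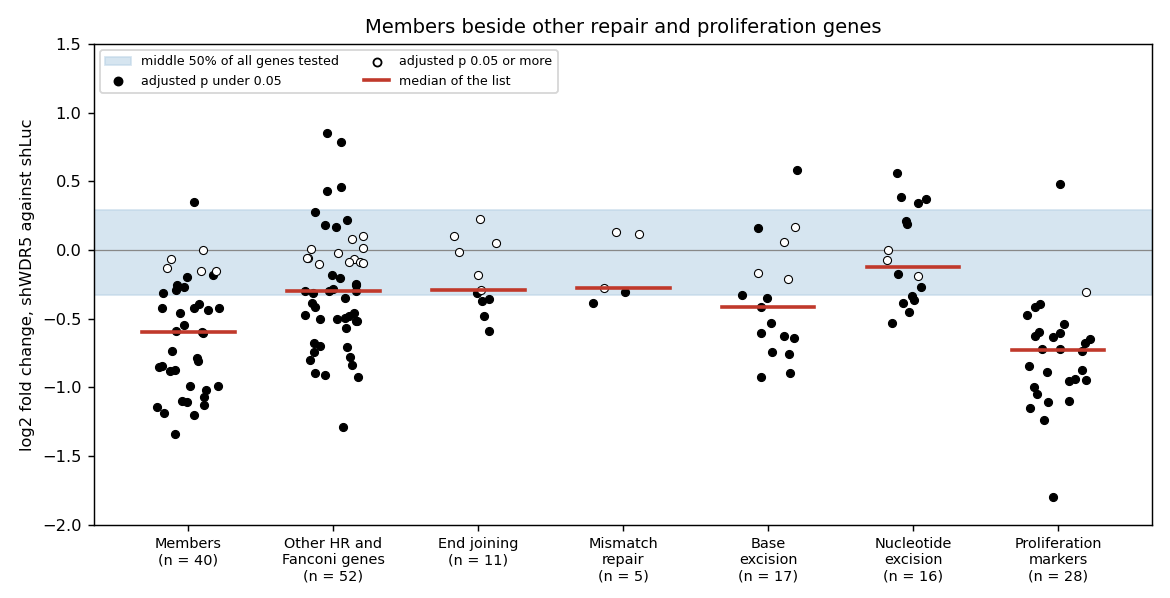
Log2 fold change (shWDR5 over shLuc) of each tested gene in the 40 repair genes, the other repair lists and the proliferation markers, with the median of each list. The medians run from -0.73 (proliferation markers) and -0.59 (the 40 genes) to -0.13 (nucleotide excision repair).

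Many repair genes are expressed mainly in S and G2 phase, so markers of proliferation are given beside them. Of 28 such genes 26 were lower, 1 was higher (CCNE1) and 1 did not pass the test (CCNE2), with a median log2 fold change of -0.73. Without the libraries numbered 1, 27 were lower and 1 higher. The transcription factor E2F8 fell from 6.26 ± 0.513 to 1.78 ± 0.354 CPM (SD, n = 3, log2 fold change -1.80, adjusted p = 2.83e-06). MCM5, a subunit of the replicative helicase, fell from 102 ± 3.65 to 43.3 ± 1.83 CPM (-1.24, adjusted p = 1.80e-07). Likewise E2F2 had a log2 fold change of -1.15 (adjusted p = 7.20e-06) and MCM6 of -1.11 (adjusted p = 7.71e-07). Summed over the list, the markers were at 3540.5, 3538.1 and 3463.4 CPM in shLuc and at 2004.5, 2055.0 and 1965.1 CPM in shWDR5, with MKI67 at a log2 fold change of -1.10. CCNE1, the G1/S cyclin, named after its values were seen, rose from 8.52 ± 0.874 to 11.9 ± 0.546 CPM (0.48, adjusted p = 0.000987). CCNE2 had a log2 fold change of -0.31 (edgeR adjusted p = 0.0888). It passed without shLuc replicate 1 (0.0173), shWDR5 replicate 3 (0.0463) or both libraries numbered 1 (0.0188). With a replicate block (0.00108) or no filter on low counts (0.0496) it passed too. Most markers and most repair genes were thus lower in the same libraries, and the part of proliferation in the lower repair RNA was not tested.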

How the data were processed

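RNA of 3 shLuc and 3 shWDR5 samples of MCF10DCIS was measured by poly-A RNA-seq with a kit that does not mark strand. The deposited values are raw counts per gene: per the submitters' processing notes the authors used TopHat2 2.1.0, featureCounts and edgeR 3.2.2 on hg19/GRCh37. The counting options for strand and overlap were not given in the sources used here. A deposited table of the authors' own comparison (fold changes, p-values and false discovery rates) was not used. Counts were fitted with edgeR 4.0.16 (R 4.3.3) by the quasi-likelihood test, with filterByExpr, TMM factors, the group as the only term and Benjamini-Hochberg adjustment over all 16117 genes tested, and calls were made at an adjusted p under 0.05. CPM used TMM-scaled totals, and RPKM the exon length given with the counts. No gene-set test was run. Replicates of a group differed by more than sampling noise (chi-square per degree of freedom 7.11 to 18.16). Nothing in the labels says that they were separate cultures, so p-values measure the spread between these samples, which may be technical. The estimated biological coefficient of variation was 0.0723. The fitting was tested on simulated data. Per role, per-library values are given for up to 4 called genes with the largest absolute log2 fold change. They are also given for genes called against the majority, for genes not called and for the gene with the highest RPKM. Of other repair lists up to 3 called genes in each direction are named, and of the proliferation list 4, besides MKI67, CCNE1 and CCNE2. Members and lists were chosen with earlier results of these data known, and some genes of the other lists are not reported here. Alternatives were DESeq2 1.42.0, its size factors, library totals alone, no count filter, a replicate block, the rule the study stated, and leaving out libraries. Promoter letters came from RefSeq (GRCh38.p14), and no coordinates were converted between builds.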

Additional observations from a re-analysis of the deposited data

How the results depend on the processing

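Of the values recomputed under the alternatives, 879 kept their direction and side of the threshold (counts stayed within 1.5 times), 31 lost their call, 8 gained one, 6 changed sign and 4 counts moved by more. The 40 genes had 31 called lower by DESeq2's Wald test (4365 lower and 4054 higher of 21785 genes fitted), 32 with DESeq2 size factors (4618 and 4497 of 16117), 35 with library totals alone (5498 and 3705 of 16117) and 34 without a filter on low counts (4970 and 4360 of 21785), with 1 called higher each time. Leaving out a library at a time gave 30 to 34 lower and 1 to 1 higher, 4271 to 4584 lower and 3803 to 4263 higher over all genes, and a WDR5 log2 fold change of -1.20 to -1.09. Leaving out both libraries numbered 1, chosen after seeing the data, gave 32. The rule the study stated gave 19 lower and 0 higher of the 40, and 1688 lower and 1274 higher of all genes, because it adds a fold and a level. RAD50, RAD51C, RAD54B, FANCM and FANCB and, of the named genes of other lists, APEX1 and XRCC4 lost their call under 1 or more of the alternatives other than the study's rule, which drops every gene under its fold. Unnamed genes lost calls too: apart from that rule the other recombination and Fanconi genes had 28 to 32 lower and 5 to 8 higher, and nucleotide excision repair 5 to 7 lower and 4 to 6 higher, while under it the former had 11 lower and 2 higher and the latter 0 and 0. Under the same rule non-homologous end joining and mismatch repair each had 0 lower and 0 higher. Base excision and single-strand break repair had 7 lower and 0 higher, and the proliferation markers 21 and 0. ATM was called with library totals alone (adjusted p = 0.0329), PALB2 without shLuc replicate 1 (adjusted p = 0.0386) and CCNE2 under 5 alternatives. Without a library at a time NBN ranged from -0.06 to 0.07 and MUS81 from -0.10 to 0.01. The log2 fold change of NBN turned positive, uncalled, at 0.01 (DESeq2), 0.02 (its size factors), 0.00 (replicate block), 0.07 (without shLuc replicate 3) and 0.02 (without shWDR5 replicate 1), as did MUS81 at 0.01 (without shLuc replicate 1). The cause was not tested.

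Same-numbered libraries correlated at 0.636, 0.082 and 0.242 in their deviations from the group means. The libraries numbered 1 thus resembled each other more than any other pair across the groups did. The other numbers did not show a pairing, as shLuc 2 correlated best with shWDR5 3 (0.44) and shLuc 3 more with shWDR5 2 (0.158) than shLuc 2 did. The labels do not say whether libraries were paired, and the main fit had no replicate term. With a replicate block 35 of the 40 genes were lower and 1 higher, and 5511 and 4901 of all genes, WDR5 was at -1.15, and ATM gained a call (adjusted p = 0.012).

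With 3 libraries a group, a gene that did not pass the test is not shown to be unchanged: the 95% interval of FANCF, the widest among the members not called, runs from -0.43 to 0.13. Overlapping exons, as in RAD54B and FANCL, limit what their counts say.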

Other observations

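Of 11 breast epithelial markers used to check the cell line, 7 were higher in shWDR5 (KRT5, KRT6A, KRT14, KRT17, TP63, ITGB4 and DSP) and 2 were lower (CDH1 and EPCAM). KRT8 and KRT18 did not pass the test (log2 fold changes of 0.04 and -0.12, edgeR adjusted p = 0.607 and 0.11). Of all genes tested, 26.6% were called higher and 29.9% lower. The basal keratin KRT17 rose from 2159 ± 96.8 to 4131 ± 313 CPM (SD, n = 3, log2 fold change 0.94, edgeR adjusted p = 1.52e-06) and KRT5 from 820.3 ± 36.5 to 1546 ± 88.7 CPM (0.91, adjusted p = 9.47e-07). CDH1, which codes for E-cadherin, fell from 496 ± 20.4 to 242 ± 6.88 CPM (-1.03, adjusted p = 2.64e-07). Summed over the 11 markers, the libraries were at 12703.4, 12305.3 and 11636.3 CPM in shLuc and at 18528.4, 16421.9 and 17253.8 CPM in shWDR5.

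Markers of other cell types were scarce. The 3 of 7 fibroblast markers that passed the filter on low counts summed to between 14.9 and 23.9 CPM, nearly all of it COL1A1, and COL1A2 had at most 4 reads in a library. Of 5 blood markers only CD14 passed the filter, at 0.7 to 1.9 CPM, and the 3 of 4 endothelial markers that passed summed to between 5.1 and 8.3 CPM. Of the 7 markers that passed, 3 were lower in shWDR5, beside 29.9% of all genes tested. They were COL1A1 with a log2 fold change of -0.50 (edgeR adjusted p = 0.000438), CD14 with -1.05 (0.000342) and PECAM1 with -0.71 (5.65e-05). The other 4 did not pass the test, PDGFRB at -0.67, PDGFRA at -0.83, CDH5 at -0.33 and KDR at 0.75. Below the filter, VWF had 6, 1 and 5 reads in shLuc and 8, 7 and 12 in shWDR5, and PTPRC had 1, 0 and 1 against 7, 4 and 4. Their part in the results was not tested.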
